A study of Mus musculus with 6 samples.

Results

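The genes described here encode the proteasome and its helpers, taken as every probe set whose only gene symbol on the array's annotation begins with Psma to Psmg and a digit. The rule found 103 probe sets of 49 genes, among 34945 probe sets that carry a single symbol and 18193 named genes. Each probe set consists of several short probes for a transcript. RNA came from muscle of 3 mice labelled knockout (KO) for SIRT6, a NAD-dependent deacylase of chromatin, and of 3 mice labelled wild type (WT), each hybridized to its own Affymetrix array. Strain background was 129SvJ in both groups. The labels name no age, sex, muscle or treatment, do not say how SIRT6 was deleted, and do not limit the knockout to a cell type. The comparison asks how the transcripts of the protein-degrading machinery differ between the labels.

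The proteasome degrades proteins that carry ubiquitin chains. Its barrel, the 20S core, stacks rings of alpha subunits, which gate the entrance, and rings of beta subunits, some of which cut proteins. The 19S cap binds the chain, removes it, and unfolds the protein with a ring of ATPases. In muscle this system breaks down contractile proteins during fasting, disuse and disease, and proteasome genes are known to be transcribed together, through the factors Nfe2l1 and Nfe2l2.

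Values below are the deposited intensities on a linear scale. Changes are KO minus WT on the scale log2(intensity + 16), which understates changes of dim probe sets, and a gene is represented by its brightest probe set unless another is named. Levels are not compared between probe sets. Array medians ran between 10.8 and 15, and 74 of the 103 proteasome probe sets had a mean above the offset of 16. Hybridization controls, transcripts added in known amounts, read 1.91 times the level of WT replicate 2 in WT replicate 1 and 0.957 to 1.01 times in the other arrays. KO replicate 3 stood apart in the proteasome values, as given below. Ratios of 3' to 5' probe sets lay between 0.811 and 0.846 for Gapdh and between 0.711 and 0.883 for Actb. Muscle fibre markers were bright, with a summed intensity of 57545.5 to 59250.6 in the KO arrays, against 54560.2 to 89324.2 in the WT arrays, the highest being WT replicate 1. Sirt6 probe set 1429631_at read 22.6, 18.3 and 13.7 in KO, against 23.2, 15.1 and 21.3 in WT. It cannot check the labels, since its place relative to the deletion is unknown. Xist probe set 1427262_at read 221.7 to 250.9 in KO, against 0.7 to 3.4 in WT, and Y-linked Eif2s3y read 1.1 to 4.1 in KO, against 44.5 to 77.1 in WT. Sex and genotype therefore cannot be told apart in any comparison below. In whole muscle, fewer cells of a type and less RNA per cell cannot be told apart either.

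Promoter stretches of 5 genes are shown because the results turn on genes that are known to share regulators. Each is the 120 bases directly before the transcript start in RefSeq's GRCm38.p6 table, read on the gene's strand. For Psmb5 (chr14:54617996-54618115, minus strand), Psmb6 (chr11:70525237-70525356, plus strand) and Psmd9 (chr5:123228070-123228189, plus strand) the capitals mark the core of the antioxidant response element, the motif bound by Nfe2l1 and Nfe2l2. For Psmd4 (chr3:95042615-95042734, minus strand), the gene with the largest change, the capitals mark a CCAAT box read on the opposite strand. The stretch of Psmd11 (chr11:80428495-80428614, plus strand) holds neither.
Psmb5: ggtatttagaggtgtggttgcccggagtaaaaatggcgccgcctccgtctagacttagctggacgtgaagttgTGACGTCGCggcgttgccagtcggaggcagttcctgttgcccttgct
Psmb6: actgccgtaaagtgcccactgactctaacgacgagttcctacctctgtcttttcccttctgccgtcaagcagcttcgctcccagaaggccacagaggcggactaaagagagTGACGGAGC
Psmd9: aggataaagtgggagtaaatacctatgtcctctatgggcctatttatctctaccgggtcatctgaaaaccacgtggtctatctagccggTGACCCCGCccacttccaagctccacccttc
Psmd4: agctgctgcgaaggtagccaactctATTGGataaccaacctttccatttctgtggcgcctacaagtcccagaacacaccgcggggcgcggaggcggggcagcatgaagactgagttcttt
Psmd11: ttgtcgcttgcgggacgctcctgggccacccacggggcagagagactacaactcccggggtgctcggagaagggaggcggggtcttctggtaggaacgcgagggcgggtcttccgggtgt

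Most proteasome genes were higher on average in the KO arrays, and none passed the test. On average 82 of the 103 probe sets were higher and 21 lower, where 48.4% of all 45037 probe sets were higher. The median log2 change was 0.31, a fold of 1.24, beside -0.01 over all probe sets, and 0.34 without WT replicate 1. It was 0.08, with 69 of 103 higher on average, when KO replicate 3 was left out. By limma's moderated test, adjusted by Benjamini-Hochberg over the whole array, 0 of the 103 had an adjusted p under 0.05, where 4 of all probe sets (0.00888%) did. Those 4 include Xist probe sets 1427262_at and 1436936_s_at, which differ with sex. At an unadjusted p under 0.05 there were 3 higher probe sets (3.57% of all probe sets) and 2 lower (4.99% of all). The higher ones were Psmd4 probe set 1418874_a_at, Psmd11 probe set 1431013_at and Psme4 probe set 1443116_at, and the lower ones Psmb8 probe set 1422962_a_at and Psmd13 probe set 1447843_at. The lowest adjusted p was 0.511, for Psmb8. All 3 KO arrays lay above all 3 WT arrays in 10 of the 103 (5.02% of all probe sets) and below them in 3 (7.29% of all).

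Counted by gene, 40 of 49 were higher on average in KO, where 46.8% of all named genes were, and 33 of 49 without KO replicate 3. The KO and WT arrays did not overlap for 6 genes higher in KO (4.51% of all named genes) and for 1 lower (8.34% of all). The 6 were Psma5, Psmc3, Psmd4, Psmd7, Psmd12 and Psmg3, of which Psmd7 was named after its values were seen, and the 1 was Psmb8.

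KO replicate 3 was the highest of the 6 arrays for 39 of the 49 genes, and for 4143 of all 18193 named genes. That array was above every WT array in 40 of 49 genes, where 29.3% of all named genes were. KO replicate 2 was above every WT array in 22 (30% of all named genes) and KO replicate 1 in 6 (13% of all). The SD of the log2 values was larger in KO than in WT for 40 of the 49 genes, where this held for 51.3% of all named genes.

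Of the 32 genes that build the constitutive 20S core and 19S cap, 30 were higher on average in KO, and KO replicate 3 was the highest array for 31. The exception was Psma8, an alpha subunit made in testis, which was dim throughout. The distance of an array from the WT mean, as the median over these 32 genes, was 0.02, 0.28 and 1.24 (log2) in KO replicates 1, 2 and 3. In WT replicates 1, 2 and 3 it was 0.26, 0.01 and -0.27. So KO replicate 1 lay below WT replicate 1, KO replicate 2 barely above it, and KO replicate 3 far above both. Over all named genes the same medians were -0.10, 0.03 and -0.01 in KO and 0.15, -0.00 and -0.14 in WT. Without KO replicate 3 the median change of the 32 genes was 0.13 in place of 0.48, with 24 of 32 higher on average. The median SD of these genes was 0.662 in KO and 0.265 in WT (log2, n = 3 each).

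**Figure D1:**
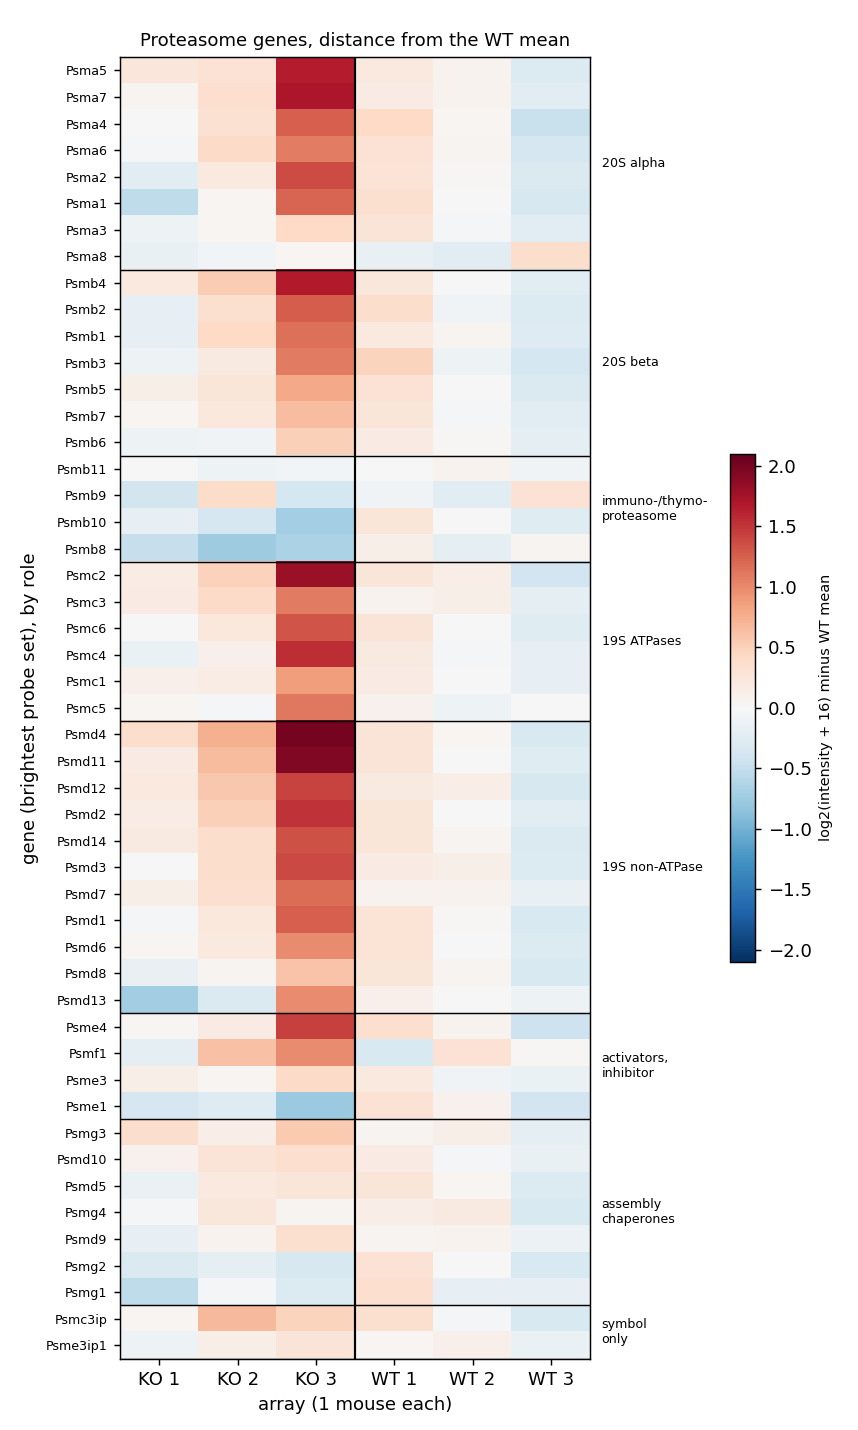
Distance of each array from the WT mean, on the scale log2(intensity + 16), for the 49 genes by their brightest probe set, in rows by role and columns by array (1 mouse each). KO replicate 3 is red in nearly every row of the constitutive 20S and 19S groups, where its distances run from 0.04 to 2.02, while Psmb8, Psmb10 and Psme1 are blue in it.

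The alpha ring, which gates the barrel, had a median change of 0.46 over 8 genes, with 7 higher on average. Leaving out KO replicate 3 gave 0.07, with 4 of 8 higher. Psma5 had 264.5, 276.3 and 723.8 in KO, against 256.4, 234.2 and 179.2 in WT. The groups did not overlap, though KO replicate 1 stood only just above WT replicate 1. Its change was 1.66-fold with a 95% interval of 0.881 to 3.12 (limma adjusted p = 0.649). Psma7 read 207, 259.9 and 682.2 in KO, against 225.7, 210.3 and 166.9 in WT (1.63-fold). Psma4 read 613.2, 766.8 and 1495.3 in KO, against 828.3, 630.7 and 442.1 in WT (1.44-fold). For both, KO replicate 3 was high and KO replicate 1 lay within the WT values. Psma6 was 1.39-fold higher on average, at each of its 2 brightest probe sets. The remaining alpha genes Psma2, Psma1 and Psma3 were 1.36-fold, 1.18-fold and 1.08-fold higher on average, but without KO replicate 3 their log2 changes were -0.02, -0.25 and -0.04. Psma8 read 1.8, 3.1 and 4.5 in KO, against 1.9, 1.1 and 9.7 in WT, below the offset on every array.

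All 7 constitutive beta ring genes were higher on average, with a median change of 0.40 and no gene without overlap. The median was 0.12, with 6 of 7 higher, once KO replicate 3 was left out. Psmb4, a structural subunit of this ring, read 499.5, 631.2 and 1412.6 in KO, against 511.6, 432.4 and 365.2 in WT. Its change was 1.74-fold, with an interval of 0.941 to 3.23 (limma adjusted p = 0.611), and KO replicate 1 lay below WT replicate 1. Psmb2 and Psmb1, neither of which cuts proteins, were 1.39-fold and 1.38-fold higher on average. Psmb3 was 1.32-fold higher on average.

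The 3 subunits that cut proteins in the constitutive core are Psmb5, Psmb6 and Psmb7. Psmb5, the chymotrypsin-like subunit, read 553.4, 605.1 and 892.9 in KO, against 628.6, 504.9 and 406.1 in WT (1.31-fold). Psmb6, the caspase-like subunit, read 318.1, 326 and 490.7 in KO, against 386.1, 348.3 and 298.4 in WT (1.08-fold). Psmb7, the trypsin-like subunit, read 1707.1, 1927.8 and 2599.8 in KO, against 1973.5, 1612.3 and 1411.2 in WT (1.24-fold). In each of them KO replicate 3 was the highest array and KO replicate 1 lay within the WT range. Without KO replicate 3 the log2 change of Psmb6 was -0.085.

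The inducible beta subunits replace these 3 in the immunoproteasome, which cells make under interferon and which cuts peptides for antigen presentation. None of this group's 4 genes was higher on average, and the median change was -0.27, or -0.16 without KO replicate 3. Psmb8, the counterpart of Psmb5, read 7.2, 3.3 and 4.4 in KO, against 19.4, 12.6 and 17.8 in WT. All KO arrays were below all WT arrays. The KO values, WT replicate 2 and the mean over all arrays lay under the offset. Its change was 1.55-fold lower (log2 change -0.64, interval -0.97 to -0.30, unadjusted p = 0.00321, limma adjusted p = 0.511). A dimmer Psmb8 probe set, 1444619_x_at, read 8.4, 7.7 and 2.6 in KO, against 9.3, 2.1 and 4.1 in WT, with no separation. Psmb10, the counterpart of Psmb7, read 33.2, 27.6 and 17.7 in KO, against 50.4, 39.1 and 30.6 in WT (1.33-fold lower, limma adjusted p = 0.621). Only KO replicate 1 of its KO values reached into the WT range. Psmb9, the counterpart of Psmb6, read 2.6, 16 and 2.9 in KO, against 7.3, 4.8 and 14.1 in WT, and Psmb11, the beta subunit of the thymus, was at 1.4 to 2.8 in KO and 1.8 to 3.8 in WT. Like Psmb8, both had means below the offset. The change of Psmb9, -0.12, was 0.025 without WT replicate 3 and 0.0093 without KO replicate 1.

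Set against its constitutive counterpart on the same array, Psmb8 minus Psmb5 was -4.62, -5.01 and -5.48 (log2) in KO, against -4.19, -4.19 and -3.64 in WT. Psmb10 minus Psmb7 was -5.13, -5.48 and -6.28 in KO, against -4.91, -4.89 and -4.94 in WT. In both pairs every KO array was below every WT array, by 0.72 on average for Psmb10 minus Psmb7. Psmb9 minus Psmb6 was -4.17, -3.42 and -4.74 in KO, against -4.11, -4.13 and -3.38 in WT, and the groups overlapped. Psmb9 on every array, and Psmb8 on all KO arrays and WT replicate 2, read at or under the offset of 16. The size of their differences therefore depends on the offset and does not measure a change within the pair. In Psmb8 minus Psmb5 both genes took part, with log2 changes of -0.64 for Psmb8 and 0.39 for Psmb5. The same held for Psmb10 minus Psmb7, with -0.41 for Psmb10, whose own values overlapped between the groups, and 0.31 for Psmb7. None of the differences says which member is more abundant, and no test was run on them. How often other pairs of genes part in this way was not computed.

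**Figure D2:**
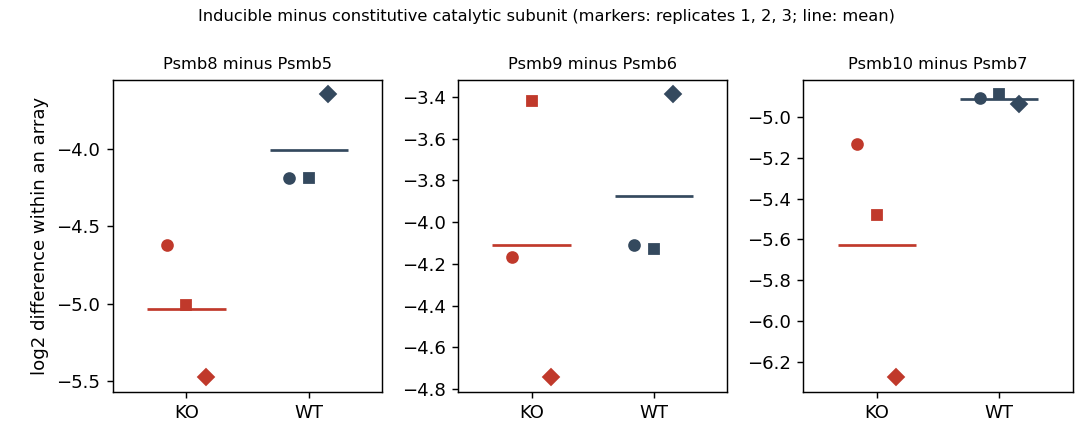
Difference of log2(intensity + 16) between an inducible and its constitutive catalytic subunit within each array, KO left and WT right, with circle, square and diamond for replicates 1, 2 and 3 and a line at the mean. The KO arrays are below all WT arrays for Psmb8 minus Psmb5 and for Psmb10 minus Psmb7, and overlap them for Psmb9 minus Psmb6. Psmb8 in KO and in WT replicate 2, and Psmb9 in both groups, lie at or under the offset of 16.

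Markers of interferon response and antigen presentation were lower on average in 11 of 12 genes (9672 of all 18193 named genes), with a median change of -0.21 and 0 past the test. At an unadjusted p under 0.05 only Irf9 was lower, where 1145 of all named genes were. The summed intensity of the 12 was 695.4, 1010.1 and 1030 in KO, against 1465.5, 918.1 and 1336.1 in WT, so the groups overlapped. B2m, the light chain of class I molecules, read 231, 357.5 and 336.3 in KO, against 577.1, 292.3 and 515.5 in WT. Leukocyte markers summed to 257.2, 422.1 and 274.3 in KO, against 459.8, 324.2 and 365 in WT, with 5 of 8 lower on average. Of these 8, 4 had a mean above the offset. Lyz2, of macrophages and neutrophils, read 80.5 to 114.8 in KO, against 104 to 173.2 in WT, and Csf1r, a macrophage receptor, 74.6 to 147.6 in KO, against 110.8 to 145.3 in WT. Adgre1 read 20 to 63.3 in KO, against 48.7 to 70 in WT, and Cd14 16.6 to 36.9 in KO, against 26 to 33.4 in WT. These 4 were all lower on average. The 3 higher on average, Ptprc, Cd68 and Itgam, had log2 changes of 0.14, 0.11 and 0.08 and means under the offset. Ptprc, Itgam and Cd3e stayed under 16 on every array, and no marker was at 0. The part of these cells in the immunoproteasome values was not tested.

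In the 19S cap, the ring of ATPases that unfolds substrates had all 6 genes higher on average, with a median change of 0.51. It was 0.13, with 5 of 6 higher, when KO replicate 3 was left out. Psmc2 read 542.7, 684.6 and 1731.7 in KO, against 580.3, 535.9 and 362.8 in WT (1.76-fold, limma adjusted p = 0.649). KO replicate 1 lay inside the WT values and KO replicate 3 far above them. Psmc3 read 492.5, 582.5 and 953.9 in KO, against 461.8, 476.5 and 378.9 in WT (1.47-fold, limma adjusted p = 0.602), with no overlap. Psmc6 and Psmc4 were 1.43-fold and 1.42-fold higher on average, and Psmc1 and Psmc5 1.30-fold each. Without KO replicate 3 the log2 change of Psmc4 was -0.014. Of the 3 Psmc6 probe sets, all with means above the offset, only the brightest was higher on average and 2 were lower. Of the lower ones, 1417770_s_at read 85.6, 56.6 and 94.5 in KO, against 137.2, 78.3 and 66.7 in WT.

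The non-ATPase subunits of the cap had a median change of 0.58 over 11 genes, with 10 higher on average. Leaving out KO replicate 3 gave 0.24, with 9 of 11 higher. Psmd4, a ubiquitin receptor, read 452.8, 592.3 and 1449.3 in KO, against 421.5, 356.8 and 274.7 in WT. Its groups did not overlap, and its 2.07-fold change had an interval of 1.04 to 4.12 (unadjusted p = 0.0419, limma adjusted p = 0.575). Psmd4 probe set 1425859_a_at gave 1.93-fold, and the dim 1451725_a_at read 29.8, 3 and 6.6 in KO, against 8.1, 24.8 and 15.2 in WT. Psmd11, a scaffold subunit of the lid, read 581, 823.4 and 2028.8 in KO, against 624.4, 509.8 and 427.8 in WT. KO replicate 1 lay among the WT values, and the change was 1.90-fold with an interval of 0.924 to 3.90 (limma adjusted p = 0.611). All 6 of its probe sets above the offset were higher on average, by 0.04 to 0.95 (log2). Its 2 dim probe sets were lower.

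Psmd12, also a lid scaffold, read 400.7, 521 and 945.2 in KO, against 396.8, 382.9 and 270.4 in WT (1.66-fold, limma adjusted p = 0.595). Psmd2, the large subunit that docks ubiquitin receptors and shuttles, read 441.2, 560.2 and 1158.6 in KO, against 470.2, 392.4 and 329.1 in WT (1.65-fold, limma adjusted p = 0.621). The groups did not overlap for Psmd12 and did for Psmd2. Psmd14, the subunit that cuts the ubiquitin chain off, read 259.9, 296.4 and 596 in KO, against 274.5, 236 and 180.1 in WT (1.54-fold). The remaining Psmd3, Psmd7, Psmd1, Psmd6 and Psmd8 had log2 changes of 0.58, 0.55, 0.48, 0.41 and 0.17, that of Psmd8 being -0.05 without KO replicate 3. Psmd13, another lid subunit, differed from its neighbours. It read 84.4, 119.4 and 315.3 in KO, against 164, 150.2 and 138.1 in WT, so KO replicates 1 and 2 were below and KO replicate 3 above every WT array. Its mean change was -0.01, and all 4 of its probe sets were lower on average. Leaving out KO replicate 1 gave 0.35, leaving out KO replicate 3 gave -0.51, and the change was 0.011 with each array centred on its median. Its dim probe set 1447843_at read 0.6, 1.2 and 0.8 in KO, against 12, 10.8 and 1.8 in WT, below the offset throughout.

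**Figure D3:**
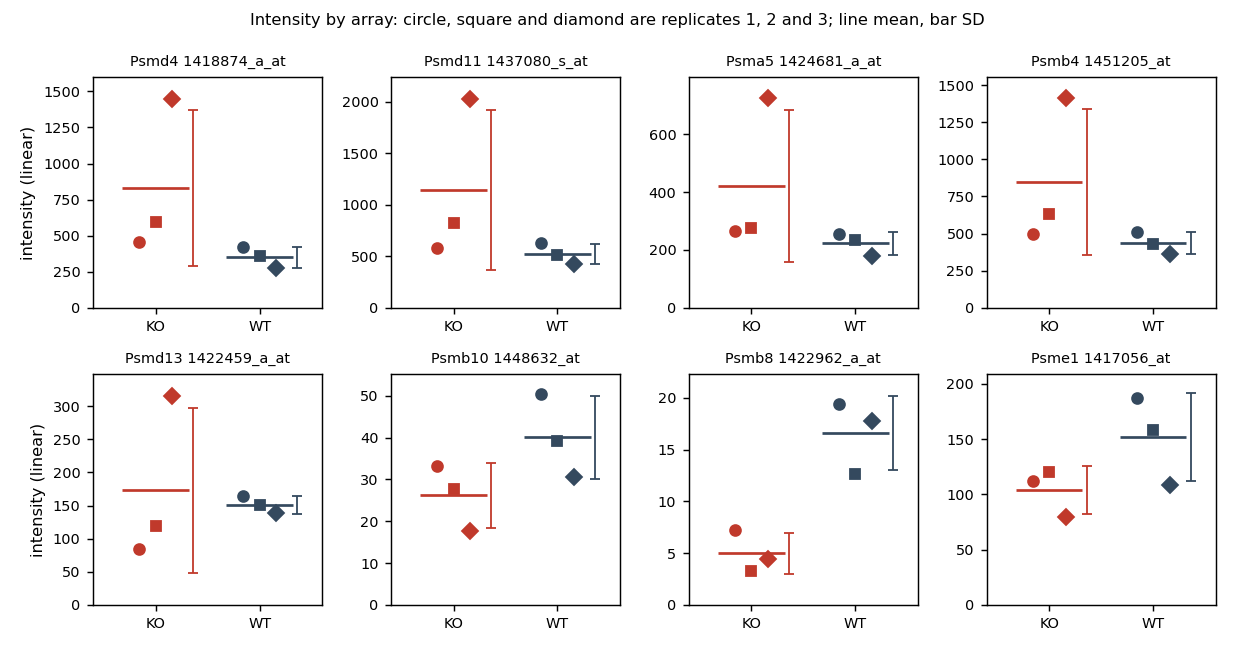
Linear intensity of 8 proteasome genes by array, KO left and WT right in each panel, with circle, square and diamond for replicates 1, 2 and 3, a line at the mean and a bar for the SD (n = 3). In Psmd4, Psmd11, Psma5 and Psmb4 the KO diamond stands far above the rest, in Psmd13 the KO points straddle the WT points, and in Psmb10, Psmb8 and Psme1 the KO mean is the lower.

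Activators are caps other than 19S, and their averages differed in direction. The median change of the 4 genes, the inhibitor Psmf1 included, was 0.33, and 0.09 without KO replicate 3. Psme4, which encodes the large single-chain activator, read 433.2, 480.7 and 1172 in KO, against 544.2, 450.4 and 312 in WT (1.46-fold, limma adjusted p = 0.753). All 6 of its probe sets were higher on average. Psme1, a subunit of the interferon-inducible activator, read 112.3, 119.9 and 79.3 in KO, against 187.4, 158.3 and 108.7 in WT (1.39-fold lower, limma adjusted p = 0.622). KO replicate 3 was here the lowest array of all. Its partner's probe set carries a second symbol and was left out, the only probe set with several symbols, 1 of them in the pattern. Psme3, the nuclear activator, was 1.14-fold higher on average, and Psmf1, which encodes an inhibitor of the core, read 33.7, 71.3 and 97.9 in KO, against 29.9, 54.3 and 42.2 in WT (1.38-fold).

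Assembly chaperones, which guide subunits into the core and cap and are not part of the finished particle, had a median change of 0.09 over 7 genes, and 0.03 with 4 of 7 higher when KO replicate 3 was left out. Psmg3, a chaperone of the alpha ring, read 39, 30.9 and 46.3 in KO, against 28.6, 30.4 and 21.6 in WT, with no overlap (1.27-fold, limma adjusted p = 0.602). Psmg1 read 24.3, 40.3 and 31.7 in KO, against 57.9, 35.9 and 35.4 in WT (1.22-fold lower). Psmg2, which pairs with Psmg1, read 66, 71.9 and 64.2 in KO, against 109.4, 85.8 and 64.8 in WT (1.21-fold lower). Its probe set 1448212_at read 59, 68.3 and 59.4 in KO, against 85.2, 69.9 and 93.3 in WT, without overlap (limma adjusted p = 0.584). Psmg4, the partner of Psmg3, had a log2 change of 0.09. Chaperones of the cap's base, Psmd10, Psmd5 and Psmd9, had log2 changes of 0.23, 0.11 and 0.08. Those of Psmg4 and Psmd5 turned to -0.068 and -0.037 without WT replicate 3, and that of Psmd9 to -0.047 without KO replicate 3. Psmd10 lies on the X chromosome.

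The rule also took in Psmc3ip, a meiotic recombination factor, and Psme3ip1, a binding partner of Psme3, neither of them a proteasome subunit. Psmc3ip was dim, at 8.4, 22.3 and 16.8 in KO, against 14.1, 7.5 and 3.1 in WT. Psme3ip1 was 1.07-fold higher on average.

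Several probe sets exist for 27 of the 49 genes, and in 8 of these they differed in direction. Among the 20 genes with several probe sets above the offset, 3 differed, namely Psmc6, Psmg2 and Psmd9. The widest gaps between probe sets of a gene were those of Psmd11, Psmd4, Psmb8, Psmc6 and Psma5, and in Psma5 all 3 were higher on average. Probe sets with a mean at or below 16 had a median change of 0.07, beside 0.39 for those above it. Probe sets whose identifier ends in s_at or x_at may bind transcripts of other genes.

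**Figure D4:**
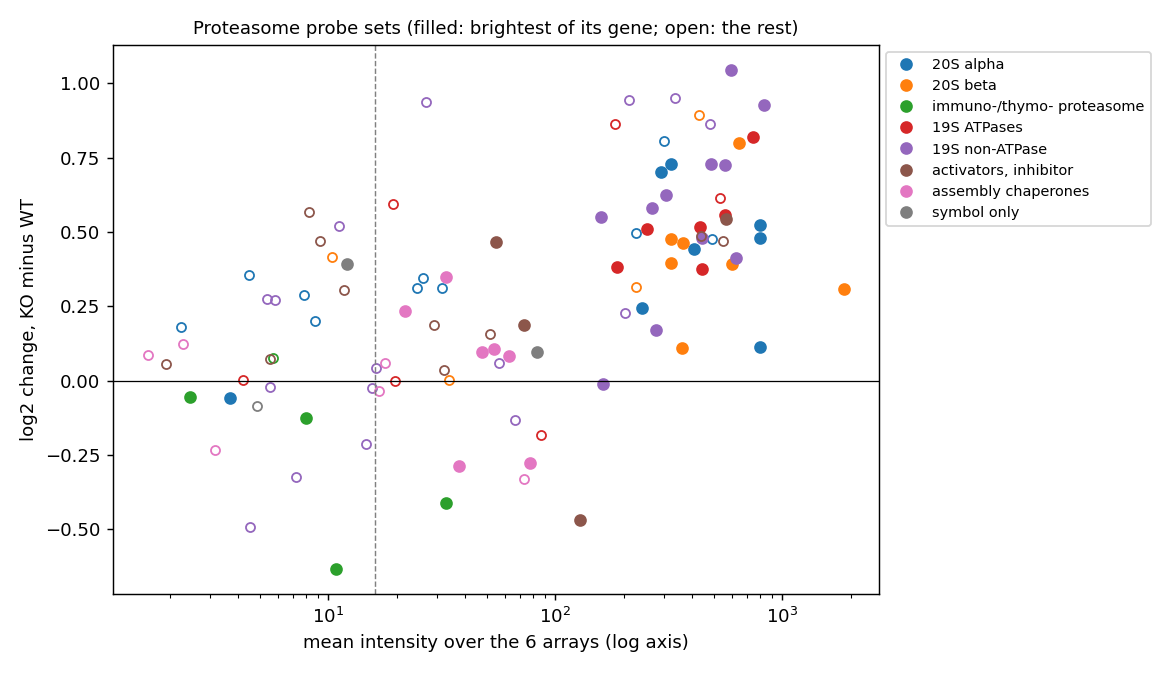
Log2 change (KO minus WT) of the 103 proteasome probe sets against their mean intensity over the 6 arrays on a log axis, coloured by role, with filled points for the brightest probe set of a gene and a dashed line at the offset of 16. Bright points lie mostly above 0, and dim ones scatter on both sides of it.

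Scaling changed how often the groups parted. All KO arrays were above all WT arrays in 27 of the 103 probe sets after quantile normalization (8.54% of all probe sets) and in 21 after each array was centred on its median (7.17% of all). Without KO replicate 1 the count was 41 (16% of all). With that array left out and probe sets below the median level removed as well, a combination chosen after seeing the data, 12 of 76 probe sets rose past the threshold (3.88% of all probe sets so tested rose). These 12 belong to Psma5, Psmb4, Psmc2, Psmd2, Psmd4, Psmd11 and Psmd12, at 1.99-fold to 2.61-fold. With the same filter and any other array left out, limma called 0, with a lowest adjusted p of 0.255.

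Among partners of the proteasome outside the symbol rule, 7 of 9 measured genes were higher on average (46.8% of all named genes) and 0 passed limma's test. At an unadjusted p under 0.05, 1 was higher, as were 644 of all 18193 named genes. The median log2 change of the 9 was 0.15, and without KO replicate 3 it was -0.02, with 4 of 9 higher. Zfand5, a zinc finger protein that activates the proteasome, read 1448.4, 2715.9 and 4738.8 in KO, against 1510.5, 1247.2 and 890.3 in WT (2.22-fold, limma adjusted p = 0.564). Akirin2, which brings proteasomes into the nucleus, read 169.7, 291.6 and 400.4 in KO, against 164, 205.4 and 167.6 in WT (1.48-fold). For both, KO replicate 1 lay within the WT range and the other two KO arrays above it.

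All 5 measured regulators of proteasome genes were higher on average (46.8% of all named genes), and 0 passed limma's test. None had an unadjusted p under 0.05. Their median log2 change of 0.41 became 0.07, with 4 of 5 higher, when KO replicate 3 was left out. Nfe2l1, which raises proteasome transcription when proteasomes fail, read 372.5, 421.2 and 428.5 in KO, against 491.3, 403.2 and 334.7 in WT, a log2 change of 0.01, which was -0.057 after quantile normalization. Nfe2l2 read 105.7, 134.2 and 232.7 in KO, against 161.7, 100.3 and 77.3 in WT (1.33-fold). Mafg, a small Maf protein that pairs with both, read 77.6, 79.5 and 267.2 in KO, against 102.3, 67 and 57.9 in WT (1.52-fold). Ngly1, the enzyme that removes sugars from Nfe2l1, was 1.35-fold higher on average. Keap1, a repressor of Nfe2l2, read 160.8, 201.9 and 311.3 in KO, against 212.3, 209.3 and 118.8 in WT (log2 change 0.29). The 5 are therefore not all activators. Transcript levels do not report the processing of Nfe2l1, which is known to be controlled as a protein.

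The core of the antioxidant response element, TGACNNNGC on either strand, was found in the promoter window of 6 of the 41 genes with a window in the RefSeq table, which is 14.6%, beside 12.5% of all 27025 windows of that length. The window runs from 250 bases before the start to 50 after it. Those 6 genes were Psmb5, Psmb6, Psmc6, Psmd9, Psmd12 and Psme4, with a median change of 0.45, beside 0.38 for the other 35. In the stretches printed above the core begins 47 bases before the start of Psmb5, 9 before that of Psmb6 and 31 before that of Psmd9. CCAAT on either strand was in 15 of 41 windows, 36.6%, beside 37.9% of all, and the median change was 0.39 with it and 0.39 without. The window of Psmd4 holds 3 matches, of which the 1 in the printed stretch lies 95 bases before the start. The windows of Psma8, Psmb1, Psmb2, Psmb7, Psmc3, Psmd3, Psmd7 and Psmg2 were not used here. A match describes the letters only.

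In ubiquitin and substrate delivery, 8 of 9 genes were higher on average (46.8% of all named genes) and 0 passed limma's test. At an unadjusted p under 0.05, 1 was higher, as were 644 of all 18193 named genes. The median log2 change of the 9 was 0.34, and 0.07 with 6 of 9 higher when KO replicate 3 was left out. Nploc4, a cofactor of the Vcp unfoldase, read 157.2, 314.8 and 820.5 in KO, against 166.1, 148.6 and 85.2 in WT (2.51-fold, limma adjusted p = 0.583). Rad23b, a shuttle that carries ubiquitylated proteins, was 1.61-fold higher on average, at 614.6 in KO replicate 3 and 149.9 to 228.2 in WT. Ubiquitin ligases of muscle wasting were all higher on average, 5 of 5 (46.8% of all named genes), with 0 past the test. At an unadjusted p under 0.05 Fbxo32, Trim63 and Fbxo31 were higher, as were 644 of all 18193 named genes. The median log2 change of the 5 was 1.26, or 0.71 with 5 of 5 still higher after leaving out KO replicate 3. Fbxo32 read 143.7, 1296.6 and 4078.5 in KO, against 135.7, 75.9 and 55.5 in WT, and Trim63 read 512.1, 1825.4 and 6884.7 in KO, against 468.2, 408 and 285.7 in WT. In both, as in the constitutive proteasome genes, KO replicate 3 was the highest array.

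Fibroblast markers were lower on average in 5 of 6 genes (9672 of all 18193 named genes), with 0 past the test. At an unadjusted p under 0.05 Col1a1, Col1a2 and Lum were lower, as were 1145 of all named genes. Summed intensities were 7151.2, 7622.9 and 3609.6 in KO, against 12865.7, 7376.5 and 10228.9 in WT. KO replicate 3 was the lowest array in that sum and the highest in the constitutive proteasome genes. Not every marker was low in it: Dcn read 1296.9 there, against 1035.5 to 1360.6 in WT. Pdgfra was higher on average (log2 change 0.45) and read 99.6 in KO replicate 3, against 59.4 to 86.7 in WT. Adipocyte markers, 5 of 5 lower on average with 0 past the test, summed to 2303.9, 4074.6 and 3460.4 in KO, against 5851.7, 3702.8 and 2991.6 in WT. The hormone genes Retn (unadjusted p = 0.0085, limma adjusted p = 0.524) and Lep (unadjusted p = 0.0478, limma adjusted p = 0.582) were lower in all KO arrays than in all WT arrays. This held for 8.34% of all named genes, and Lep had a mean under the offset. Endothelial markers were higher on average in 4 of 5 genes and satellite cell markers in 3 of 4 (46.8% of all named genes), each list with 0 past the test. No endothelial marker had an unadjusted p under 0.05. Endothelial markers summed to 403.8, 594.2 and 330.3 in KO, against 448.1, 438.4 and 356.3 in WT. Satellite cell markers summed to 145.7, 138.8 and 153.1 in KO, against 174.1, 133.6 and 111 in WT. Of the satellite cell markers, the myogenic factor Myf5 was higher in all KO arrays than in all WT arrays (4.51% of all named genes), with a mean under the offset. Its limma p was 0.00116 unadjusted and 0.462 adjusted, where 644 of all 18193 named genes were higher at an unadjusted p under 0.05. The part of these cell types in the proteasome values was not tested.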

How the data were processed

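Per the labels' protocols, TriPure was used to extract the RNA and biotin to label it. The authors deposited linear intensity values, 1 for each probe set on each of 6 arrays; how they were scaled or background-corrected, and with what software, is not given in the sources used here. Of 45101 probe sets, 64 controls were left out. Genes came from the platform's annotation; 9160 probe sets carry no symbol and 932 several. log2(intensity + 16) was tested without further normalization by limma 3.58.1 in R 4.3.3 (lmFit and eBayes, two-sided), with Benjamini-Hochberg adjustment over 45037 probe sets. Intervals are at the 95% level. The p-values test KO against WT relative to the spread between 3 mice a group, which limma moderates over all probe sets. The test was checked on simulated data with the same arrays a group, where it missed most changes of the size seen here, so an adjusted p above the threshold does not show that levels were alike. No column was left unused.

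Members and lists were chosen with earlier results of these data known. Named are, per role, the 4 genes with the largest change and the smallest. Also named are all immunoproteasome, activator and assembly genes, and 2 or more of each list. The remaining members, Fbxo31, Keap1, single markers and probe sets other than a gene's brightest were added after their values were seen. Numbers do not pair the mice: deviations of arrays with the same number correlated at -0.06, 0.03 and -0.06. Alternatives were quantile normalization, median centring, a filter on dim probe sets, trended and robust variance, a replicate block, offsets of 1 and 64 and each array left out. The number of arrays limits the precision.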

Additional observations from a re-analysis of the deposited data

How the results depend on the processing

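The count of proteasome probe sets past the threshold was 0 under quantile normalization, median centring, the filter, both other offsets, trended and robust variance, the replicate block, a threshold of 0.01 and with any array left out; it was 12 only with the filter and without KO replicate 1. Over all probe sets the count of 4 became 77 with the filter, 11 with median centring, 9 with quantile normalization, 15 with trended and robust variance, 1 with an offset of 64, 2 at a threshold of 0.01, 0 with the replicate block, 1 to 6 with an array left out, and with the filter and an array left out 1347 without KO replicate 1, 13 without KO replicate 2, 309 without KO replicate 3, 67 without WT replicate 2 and 8 without WT replicate 1 or WT replicate 3. Proteasome probe sets at an unadjusted p under 0.05 were 5, and 14 with the filter, 19 with median centring, 11 with quantile normalization, 12 with trended and robust variance, 3 with an offset of 64 and 3 to 29 with an array left out. The matching shares over all probe sets under these alternatives are not given here, so a rise in this count cannot be read as particular to the proteasome. Proteasome probe sets with all KO arrays above all WT arrays were 10 (5.02% of all probe sets). They were 21 with median centring (7.17% of all) and 27 with quantile normalization (8.54% of all). With an array left out they were 12 to 41, the 41 being without KO replicate 1 (16% of all). Probe sets higher on average stayed between 64, of the 76 that the filter keeps, and 85, and the median log2 change between 0.08 (without KO replicate 3) and 0.51 with an array left out, at 0.15 with an offset of 64, and at 0.59 with the filter and without KO replicate 1. With an array left out the medians by role over probe sets were 0.16 to 0.60 for the alpha ring, 0.12 to 0.59 for the constitutive beta ring, -0.38 to -0.054 for the inducible beta subunits, 0.13 to 0.76 for the ATPases, 0.12 to 0.60 for the non-ATPase subunits, 0.06 to 0.47 for activators, -0.037 to 0.11 for chaperones and 0.012 to 0.19 for genes matched by symbol only. Over genes by their brightest probe set they were 0.07 to 0.76, 0.12 to 0.64, -0.41 to -0.16, 0.13 to 0.76, 0.24 to 0.85, 0.09 to 0.51, -0.037 to 0.21 and 0.13 to 0.38 in the same order of roles. Some log2 changes turned direction with an array left out: Psma1 (-0.25 to 0.63), Psma2 (-0.017 to 0.78), Psmd8 (-0.048 to 0.33), Psmb6 (-0.085 to 0.22), Psmc4 (-0.014 to 0.83) and Psmd9 (-0.047 to 0.21), which were lowest and negative without KO replicate 3; Psma3 (-0.036 to 0.23), negative without KO replicate 3 or WT replicate 3; Psmd5 (-0.037 to 0.23) and Psmg4 (-0.068 to 0.19), negative without WT replicate 3; Psma8 (-0.17 to 0.13), positive without WT replicate 3; Psmb9 (-0.38 to 0.025), positive without KO replicate 1 or WT replicate 3; Nfe2l1 (-0.13 to 0.14), negative without KO replicate 2, KO replicate 3 or WT replicate 3, and at -0.057 with quantile normalization; and Psmd13 (-0.51 to 0.35), positive without KO replicate 1, KO replicate 2 or WT replicate 1, and at 0.011 with median centring and 0.022 with an offset of 64. The causes were not tested. Dim probe sets, the immunoproteasome's among them, carry little signal over the offset. Protein identity between catalytic counterparts was not run.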
